A study of Arabidopsis thaliana with 9 samples.

Results

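Seedlings of the Arabidopsis thaliana line CAB3::pBVR2 were compared with seedlings of their wild type, No-0 WT, on Affymetrix ATH1 arrays. The arrays were taken by their titles and line labels, 3 of each line, and make up 6 of the 9 arrays in the series. CAB3::pBVR2 expresses BVR, a gene for biliverdin reductase, which degrades the chromophore that all phytochromes share, from the CAB3 promoter, described by the study as mesophyll specific. The other 3 arrays came from 35S::pBVR3, which expresses BVR from the constitutive 35S promoter, and No-0 WT carries no transgene. Seedlings of every line had a red light pulse and a dark cold treatment as seeds, were then grown in continuous far-red (FRc) light, and were collected whole at 7 days of age. Each array holds RNA from a separate extraction, so the p-values below measure the spread between these extractions, and each pBVR genotype is 1 transgenic line. In whole seedlings, fewer cells of a type and less RNA per cell cannot be told apart. The BVR transcript and the phytochrome apoprotein genes were not analysed here, so the transgene itself gave no check of the labels.

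Phytochromes are red and far-red light receptors made of an apoprotein and a linear tetrapyrrole chromophore. In far-red light phytochrome A is the receptor that drives de-etiolation, in which cotyledons open, chloroplasts begin to develop and the hypocotyl stops elongating. Mesophyll cells hold most of the chloroplasts of a cotyledon, and the proteins of those chloroplasts are encoded partly in the nucleus and partly in the plastid genome.

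A large part of the transcriptome differed between CAB3::pBVR2 and No-0 WT, and falls were more frequent than the rises among strongly expressed genes. Of 22746 probe sets on the array, 15436 passed the filter on signal and were tested. With limma and a Benjamini-Hochberg adjusted p under 0.05, 2585 probe sets (16.7%) were higher and 3112 (20.2%) were lower in CAB3::pBVR2 than in No-0 WT. For 24% of the probe sets every CAB3::pBVR2 array exceeded every No-0 WT array, and for 25.8% the reverse held, so that the groups did not overlap for 49.8%. With a change of at least 2-fold as well as the test, 1325 (8.58%) were higher and 1689 (10.9%) were lower. At 4-fold the counts were 260 higher and 387 lower (1.68% and 2.51%), and at 8-fold they were 50 and 81 (0.324% and 0.525%). The log2 fold change, always CAB3::pBVR2 minus No-0 WT, had a median of 0.02 over all tested probe sets, with percentiles 5 and 95 at -1.56 and 1.44. When the probe sets were split by mean signal into 4 groups of 3859, 14.1% of the group with the highest signal were higher and 31.4% were lower, with a median of -0.15. In the group with the lowest signal 15.6% were higher and 12.3% were lower, with a median of 0.10. The nuclear chromosomes were alike, with 14.7% to 16.5% of the named probe sets higher and 17.8% to 20.1% lower on each of the 5, whereas none of the 68 plastid-encoded genes was higher and 39 (57.4%) were lower. Shifting each array to its median in place of its 75th percentile gave 2069 higher and 3455 lower, and moved the median of all probe sets to -0.06.

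**Figure D1:**
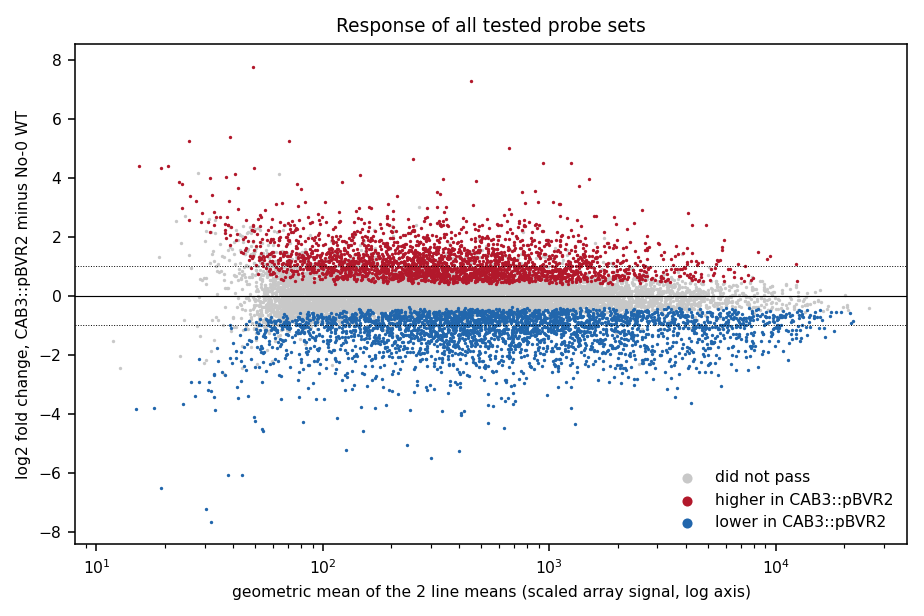
Log2 fold change (CAB3::pBVR2 minus No-0 WT) of the 15436 tested probe sets against the geometric mean of both line means, in array signal on a log axis. Red points are the 2585 probe sets that were higher and blue points the 3112 that were lower; dotted lines mark 2-fold, and blue points outnumber red ones at the right, where signal is high.

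Arrays of a line were alike and the lines stood apart. The correlation of log2 signal over the tested probe sets was 0.948 to 0.957 between CAB3::pBVR2 arrays, 0.953 to 0.968 between No-0 WT arrays and 0.847 to 0.862 across the lines. Signals below are array signals after the shift to a common 75th percentile, given in the order of replicates 1, 2 and 3. The ubiquitin-conjugating enzyme gene PEX4 (UBC21), a common reference transcript, had 2383, 2650 and 2173 in CAB3::pBVR2 and 2720, 2763 and 2450 in No-0 WT, and did not pass (log2 fold change -0.14, adjusted p = 0.473; 0.07 with quantile normalization). One control differed in level: the 25S rRNA probe set had log2 signals of 9.50, 7.82 and 8.34 in CAB3::pBVR2 against 10.74, 10.35 and 13.04 in No-0 WT (exact two-sided permutation p = 0.1, the smallest that 3 against 3 allows). The log2 difference between the 3′ and 5′ control probe sets of ubiquitin was 1.04, 1.18 and 1.15 in CAB3::pBVR2 and 1.34, 1.51 and 1.57 in No-0 WT. The same difference for GAPDH ran the other way, with 1.04, 0.56 and 0.59 in CAB3::pBVR2 and 0.51, 0.42 and 0.43 in No-0 WT, and that for actin overlapped between the lines (exact two-sided permutation p = 0.1, 0.1 and 0.9 for ubiquitin, GAPDH and actin). The part of these controls in the results below was not tested. Of the markers of cell types that were named and kept, the mesophyll and stomatal genes RCA and FMA were lower, and the root genes PYK10 and EXPA7 did not pass (log2 fold changes 0.13 and 0.88).

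Many of the largest falls took transcripts that were well measured in No-0 WT down to the background of the array in CAB3::pBVR2. Among probe sets with 1 named gene, a passed test and no overlap between the lines, the 15 with the largest falls had adjusted p-values of 2.32e-06 to 0.00694, and 7 of them were not above background on any CAB3::pBVR2 array, so their fold is a lower bound. AT2G29290, annotated as a pseudogene of tropinone reductase, had 61.2, 62.0 and 68.7 in CAB3::pBVR2 against 2367, 2522 and 2507 in No-0 WT, 38.6-fold lower. DTX1, a transporter of the MATE efflux family, had 52.0, 55.7 and 28.1 in CAB3::pBVR2 against 2369, 1946 and 1651 in No-0 WT, 45.4-fold lower. FBA5, a fructose-bisphosphate aldolase, had 37.0, 48.5 and 34.4 in CAB3::pBVR2 against 1681, 1643 and 835 in No-0 WT, 33.4-fold lower. In all 3 genes the arrays of the lines lay far apart, with DTX1 and FBA5 above background on 2 of the 3 CAB3::pBVR2 arrays. AT1G70820, annotated as a phosphoglucomutase, was at 5.8, 3.37 and 4.75 in CAB3::pBVR2, not above background, against 259, 315 and 360 in No-0 WT, at least 9.09-fold lower. AT5G55450, of the lipid transfer protein family, was at least 12.1-fold lower, and the cysteine-rich receptor-like kinase CRK21 at least 8.89-fold lower. The remaining bounded falls were those of the cis-prenyltransferase cPT4, the extracellular lipase gene AT1G75880, the NPH3 family gene AT1G52770 and the MADS-box gene SEP3, a floral organ identity factor, by at least 4.94-, 6.87-, 7.29- and 7.42-fold. NDA1, an alternative NAD(P)H dehydrogenase, had 28.3, 6.07 and 35.3 in CAB3::pBVR2, where 1 array was above background, against 814, 670 and 576 in No-0 WT. AT1G22690, annotated as gibberellin responsive, had 533, 211 and 178 in CAB3::pBVR2 against 5605, 5081 and 5911 in No-0 WT, and AT1G21520, of unknown function, had 105, 119.7 and 112 against 3705, 1004 and 2920. AT3G05730 fell by 4.59 and AT1G76110 by 4.29 on the log2 scale. The call of AT1G76110 was lost with the plain analysis of variance across the 3 lines, the test of the study's methods (adjusted p = 0.0726, range over the alternatives 0.000402 to 0.0726).

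The largest rises included transcripts that No-0 WT seedlings hardly held. The 15 largest had adjusted p-values of 1.06e-05 to 0.00395, and 7 of them were not above background on any No-0 WT array. AT4G17470, a palmitoyl protein thioesterase family member, had 853, 664 and 630 in CAB3::pBVR2 against 2.34, 3.73 and 3.99 in No-0 WT, at least 24.3-fold higher. ENODL1, an early nodulin-like protein with a plastocyanin-like domain, had 5620, 5864 and 4204 in CAB3::pBVR2 against 15.3, 38.1 and 64.0 in No-0 WT, where 2 of the arrays were above background, a log2 fold change of 7.27. GolS2, a galactinol synthase of raffinose oligosaccharide synthesis, had 174, 474 and 80.8 in CAB3::pBVR2 against 1.27, 10.3 and 7.16 in No-0 WT, at least 6.46-fold higher with a wide spread between the CAB3::pBVR2 arrays. Other large rises were in genes measured on every array of both lines. AT2G47780, related to rubber elongation factor, had 3785, 4445 and 2915 in CAB3::pBVR2 against 91.4, 159.8 and 104 in No-0 WT. AT4G37220, annotated as stress responsive, had 5469, 7265 and 5069 in CAB3::pBVR2 against 235, 247 and 299 in No-0 WT. NUDT8, a nudix hydrolase, had 1236, 1643 and 1125 in CAB3::pBVR2 against 87.9, 97.8 and 70.6 in No-0 WT, 15.6-fold higher. The lowest CAB3::pBVR2 array of each lay far above the highest No-0 WT array. AT2G16005, with a lipid recognition domain, AT1G27030 and AT4G35720, both of unknown function, and TSA1, an ER body protein, were higher by 4.63, 3.94, 3.88 and 4.08 on the log2 scale. The other 5, with bounds of 2.87- to 5.28-fold, were AT1G05770, AT5G53990, AT2G04500, AT1G14940 and the wall hydrolase GH9B8. The call of AT2G04500 was lost with the plain analysis of variance (adjusted p = 0.0553, range 0.00133 to 0.0553).

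**Figure D2:**
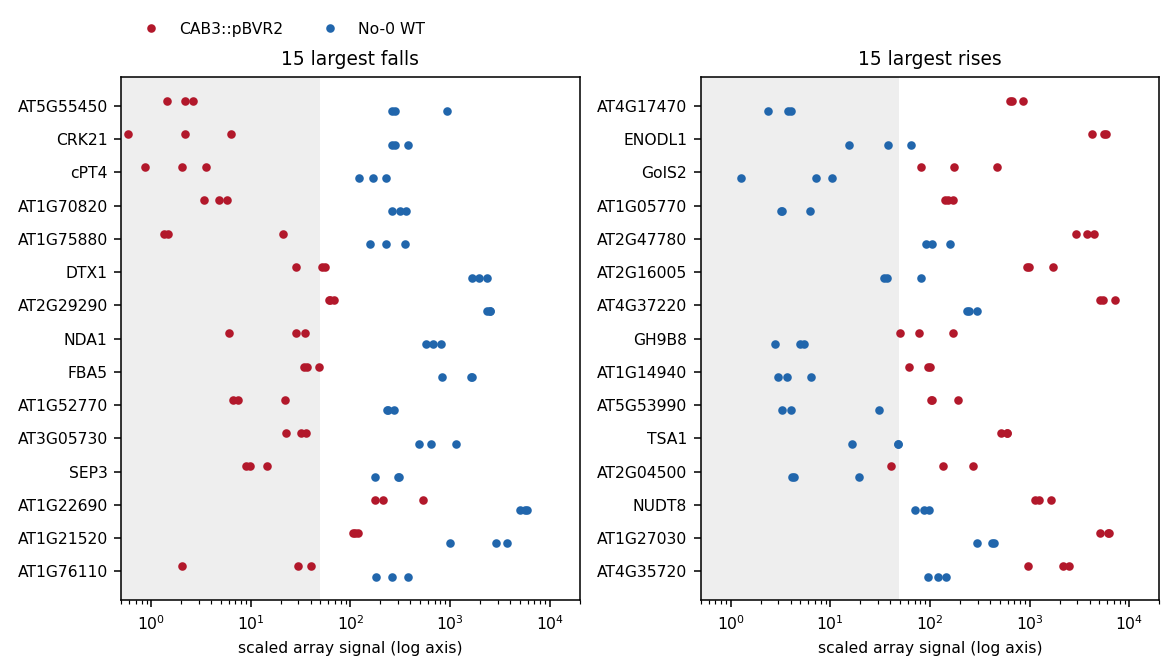
Array signal on a log axis, with 1 point per array, of the 15 named genes with the largest falls (left) and the largest rises (right) that passed with no overlap between the lines, CAB3::pBVR2 in red and No-0 WT in blue. The shaded band ends at the highest background of any array (48.0), and 7 genes on each side have all points of the dimmer line inside the background of their arrays.

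The response was then read by function, in 20 lists of genes named from the array annotation. More lists were counted than these 20, which were chosen with earlier results of these data known. Among those left out, 3 of 4 kept jasmonate genes were higher and none lower, and 3 of 3 starch genes were lower. With the plain analysis of variance 1 of each was left. Others were split, such as the RALF-like peptides with 3 higher and 2 lower of 7. For each list the count of members higher and lower is to be read against 16.7% and 20.2% of all tested probe sets, and its median against 0.02. Among the 20, the lists with the lowest medians were those of the chloroplast and of stomata. The highest medians were those of wall hydrolases, ER body and jacalin proteins, and seed and dehydration proteins. The wall hydrolase median covers 5 of the 15 family members named on the array. The filter, which 1 of the 9 arrays could meet, also keeps a gene that is high in a single line.

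**Figure D3:**
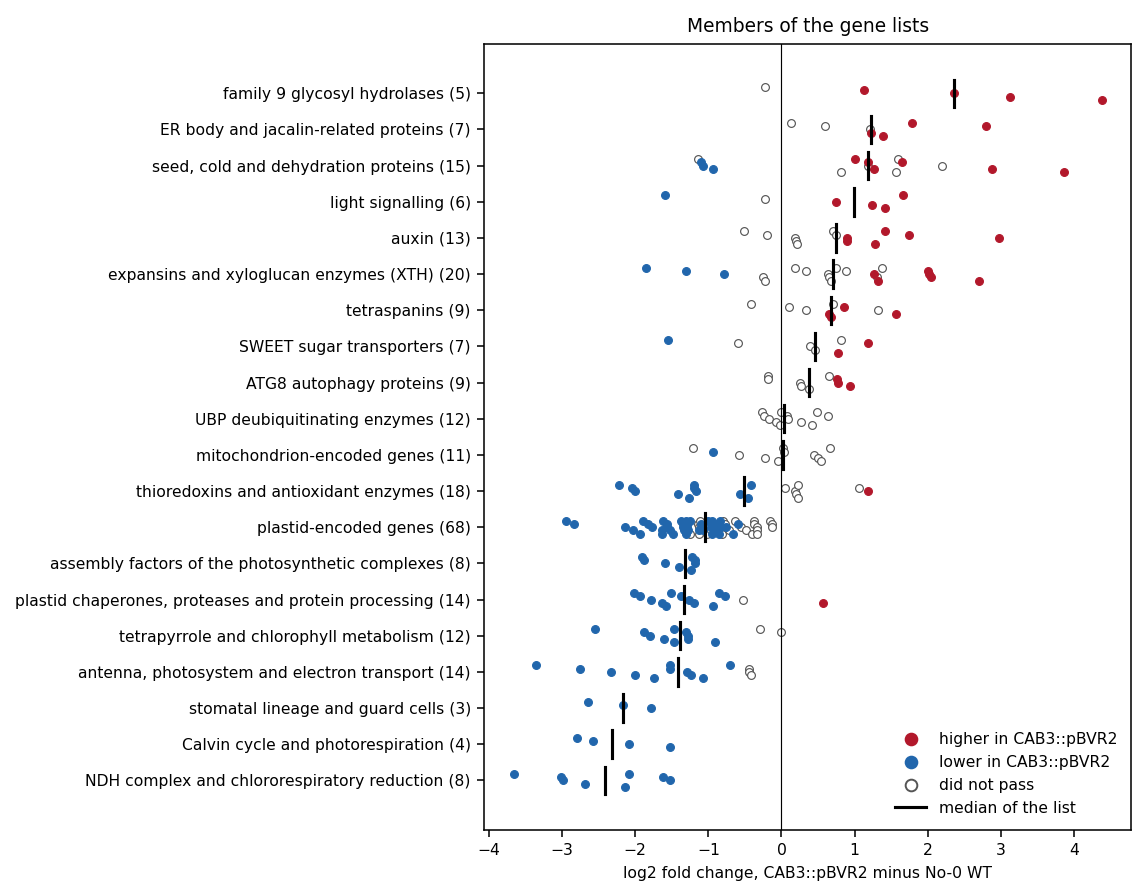
Log2 fold change (CAB3::pBVR2 minus No-0 WT) of each kept member of 20 gene lists, with the number of kept members in brackets and a black bar at the list's median. Filled red and blue points passed as higher and lower. The medians of the nuclear and plastid-encoded chloroplast lists lie left of 0 and those of the wall, ER body and seed lists right of it, with members of some lists on both sides.

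Nuclear genes for the thylakoid membrane fell together. Of 14 kept genes for antenna, photosystem and electron transport proteins, 11 were lower and none higher, with a median of -1.41. CaS, a thylakoid calcium-sensing protein, had 271, 329 and 311 in CAB3::pBVR2 against 3114, 3538 and 2675 in No-0 WT, 10.2-fold lower (adjusted p = 9.98e-06). TROL, which tethers ferredoxin-NADP reductase to the thylakoid, had 891, 687 and 656 in CAB3::pBVR2 against 5399, 4705 and 4840 in No-0 WT. The lines were far apart for both genes. PSAE-1, a stromal subunit of photosystem I, had 3029, 2827 and 2640 in CAB3::pBVR2 against 15300, 13417 and 13872 in No-0 WT, and the minor antenna gene LHCB4.2 had 1565, 1910 and 1193 against 7830, 5562 and 5255. Among small photosystem subunits PSAN averaged 3522 ± 331 in CAB3::pBVR2 and 11722 ± 184 in No-0 WT, and PSBY averaged 5051 ± 387 and 14562 ± 675 (SD, n = 3 each). LHCB4.3, a further CP29 isoform, did not pass (-0.42), and neither did ATPC2 or PGRL1B. All 8 kept factors that assemble the photosynthetic complexes were lower, by -1.91 (CCB3, of cytochrome b6f haem attachment) to -1.18 (LPA1 and LPA66, of photosystem II). HCF101, which inserts iron-sulphur clusters into photosystem I, had 286, 249 and 235 in CAB3::pBVR2 against 919, 966 and 932 in No-0 WT, and the photosystem II factor PAM68 had 472, 585 and 426 against 1559, 1529 and 914.

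The chloroplast NDH complex, a route of cyclic electron flow around photosystem I, had the lowest median of the lists (-2.41), with 8 of 8 nuclear genes for its subunits and for the CRR factors it needs lower. NdhL had 171, 184 and 228 in CAB3::pBVR2 against 2731, 2522 and 2087 in No-0 WT, 12.6-fold lower, and NdhN had 129, 141 and 148 against 1065, 1177 and 1083, 7.96-fold lower. CRR42 had 68.8, 55.3 and 25.9 in CAB3::pBVR2, where 2 arrays were above background, against 416, 396 and 317 in No-0 WT. The pentatricopeptide editing factors CRR28, CRR22 and CRR21 were at -2.14, -2.68 and -2.09. The call of CRR22, above background on 1 CAB3::pBVR2 array, was lost with the plain analysis of variance (adjusted p = 0.0564, range 0.000516 to 0.0564).

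Genes of carbon fixation and photorespiration were lower too, 4 of 4 kept, with a median of -2.32. SBPASE, the sedoheptulose bisphosphatase of the Calvin cycle, had 1419, 1079 and 1397 in CAB3::pBVR2 against 11802, 7787 and 7897 in No-0 WT. PRK, which makes the carbon dioxide acceptor, had 1683, 2117 and 2597 in CAB3::pBVR2 against 13206, 12611 and 11608 in No-0 WT. The peroxisomal hydroxypyruvate reductase HPR had 2913, 3831 and 4093 in CAB3::pBVR2 against 15233, 15115 and 14947 in No-0 WT. Rubisco activase, RCA, had 8360, 7682 and 6727 in CAB3::pBVR2 against 21721, 20474 and 22826 in No-0 WT, 2.86-fold lower. In each of these 4 genes all CAB3::pBVR2 arrays lay below all No-0 WT arrays. Further genes named through the study's own list, which was chosen on these arrays for a difference between CAB3::pBVR2 and 35S::pBVR3 and is therefore no independent evidence, included CA1, a chloroplast carbonic anhydrase, with 2367, 1751 and 1830 in CAB3::pBVR2 against 18083, 16739 and 14889 in No-0 WT. FNR2, a ferredoxin-NADP reductase from the same source, had 333, 264 and 412 in CAB3::pBVR2 against 4652, 4636 and 4537 in No-0 WT, 13.9-fold lower.

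Tetrapyrrole synthesis makes chlorophyll, haem and the phytochrome chromophore itself. Of 12 kept genes of tetrapyrrole and chlorophyll metabolism 10 were lower and none higher, and the median was -1.39. The lower ones included NOL, a chlorophyll b reductase of chlorophyll breakdown (-0.91). CHLI2, which belongs to magnesium chelatase at the entry to the chlorophyll branch, had 241, 246 and 207 in CAB3::pBVR2 against 1394, 1442 and 1214 in No-0 WT. HEME1, a uroporphyrinogen decarboxylase before that branch, had 601, 640.5 and 595 in CAB3::pBVR2 against 2216, 2509 and 2038 in No-0 WT. PORB, a protochlorophyllide oxidoreductase, had 1133, 765 and 846 in CAB3::pBVR2 against 2193, 2123 and 2275 in No-0 WT. The falls thus covered early and late steps of the pathway, with GSA1 and HEMB1 at -1.28 and -1.47 and the chlorophyll binding protein gene LIL3:1 at -1.80. HEMA2, a glutamyl-tRNA reductase of non-green tissue, did not pass (-0.30). From the study's own list, the magnesium chelatase subunit GUN5 had 2197, 2613 and 2215 in CAB3::pBVR2 against 10534, 10522 and 8401 in No-0 WT, and its activator GUN4 had 545, 694 and 352 against 2971, 2049 and 1895.

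Genes for plastid protein homeostasis were mostly lower. Of 14 kept genes in the list of plastid chaperones, proteases and protein processing 12 were lower and 1 was higher, with a median of -1.33. The lower ones included the plastid division genes FTSZ2-1 and FTSZ2-2 (-0.93 and -1.38) and the translation initiation factor FUG1 (-1.20). They also included the mitochondrial Clp subunit NCLPP7 (-0.86). The methionine aminopeptidase MAP1C had 371, 475 and 447 in CAB3::pBVR2 against 1722, 1869 and 1600 in No-0 WT. The Clp protease subunit CLPP4 had 1024, 1052 and 885 in CAB3::pBVR2 against 3237, 3332 and 2665 in No-0 WT. The chaperonin genes split: Cpn60beta2 and Cpn60beta4 were lower (-1.78 and -1.94), while Cpn60beta3 was higher, at 523, 506 and 556 in CAB3::pBVR2 against 356, 341 and 371 in No-0 WT. Of 18 kept thioredoxins and antioxidant enzymes 11 were lower and 1 was higher (2 when replicates were blocked), with a median of -0.51. TAPX, a thylakoid ascorbate peroxidase, TRXF2, an f-type thioredoxin, and NTRC, a thioredoxin reductase with its own thioredoxin domain, were lower. NTRC had 376, 388 and 544 in CAB3::pBVR2 against 1791, 1644 and 1736 in No-0 WT. The monodehydroascorbate reductase ATMDAR2 was higher, with 2533, 1980 and 1510 in CAB3::pBVR2 against 1027, 768 and 826 in No-0 WT. The glutathione reductase gene GR1 and the thioredoxin gene TO2 did not pass, with log2 fold changes of 0.18 and 0.20. The count of lower members was 7 without a filter on signal and without No-0 WT replicate 2.

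Transcripts of the plastid genome were lower in CAB3::pBVR2. The summed signal of 68 kept plastid-encoded genes was 247417, 243756 and 218104 on the CAB3::pBVR2 arrays against 360547, 555908 and 453466 on the No-0 WT arrays. All 68 had a log2 fold change below 0 (59 with quantile normalization), with a median of -1.04, 39 passed as lower and none as higher. psbA, which encodes the D1 protein of photosystem II, had 673, 845 and 496 in CAB3::pBVR2 against 4779, 5222 and 5061 in No-0 WT, 7.65-fold lower (adjusted p = 0.000365). rbcL, for the large subunit of Rubisco, had 993, 1448 and 794 in CAB3::pBVR2 against 6539, 10064 and 6333 in No-0 WT, 7.15-fold lower. psaA, for a core protein of photosystem I, had 244, 397 and 142 in CAB3::pBVR2 against 754, 1265 and 816 in No-0 WT. These transcripts were lower on every CAB3::pBVR2 array than on any No-0 WT array. By complex, 5 of 5 photosystem I genes were lower (median -1.57), 8 of 15 of photosystem II (-0.81), 4 of 6 of cytochrome b6f (-0.89), 4 of 6 of ATP synthase (-0.84) and 6 of 10 of the NDH complex (-1.06). Of genes for the plastid's own expression machinery, 4 of 14 ribosomal protein genes (-1.12) and 2 of 4 RNA polymerase genes (-0.96) were lower. The range within photosystem II was wide, from -2.94 for psbA to -0.13, and 7 of its genes did not pass. The count of lower plastid genes was 18 with the plain analysis of variance, 28 with quantile normalization and 48 when replicates were blocked. It also depended on single No-0 WT arrays, with 52 lower (median -1.32) without replicate 1 and 29 (median -0.79) without replicate 2. Under every setting 15 were lower. The ATH1 labelling starts at poly(A) tails, which most plastid transcripts lack, so these signals are a part of the plastid RNA.

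**Figure D4:**
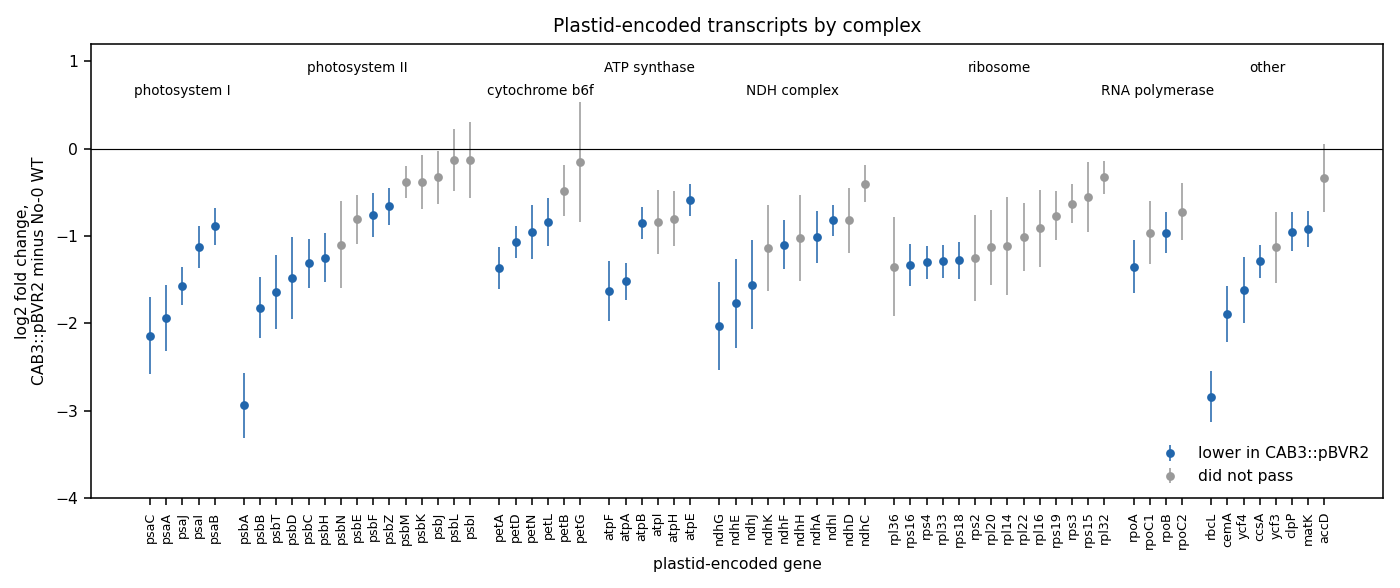
Log2 fold change (CAB3::pBVR2 minus No-0 WT) with its standard error of 68 plastid-encoded genes, grouped by complex. Blue points passed as lower and grey points did not pass, every point lies below 0 (59 of the 68 would with quantile normalization), and psbA and rbcL are lowest.

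Of 11 kept mitochondrion-encoded genes, none was higher and 1 was lower, with a median of 0.02 and log2 fold changes from -1.21 to 0.67. With each array left out in turn 0 to 2 were lower, 2 without No-0 WT replicate 1 and none without any of the others, and when replicates were blocked 2 were higher and 1 lower.

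Light signalling genes moved in both directions. FHL, a protein that carries phytochrome A into the nucleus, had 474, 546 and 718 in CAB3::pBVR2 against 178, 157 and 210.1 in No-0 WT, a log2 fold change of 1.66 (adjusted p = 0.000692). HAT2, a homeodomain factor induced by auxin and by shade, had 716, 423 and 443 in CAB3::pBVR2 against 190, 197 and 186 in No-0 WT. HYH, the close relative of the photomorphogenesis factor HY5, had 114, 121 and 246 in CAB3::pBVR2 against 517, 364 and 499 in No-0 WT. The lines did not overlap in any of the 3 genes, and FHL and HAT2 were higher while HYH was lower. The call of HYH was lost with the plain analysis of variance (adjusted p = 0.0505, range 0.000855 to 0.0505). HY5 itself, named through the study's own list, was higher, at 348, 329 and 552 in CAB3::pBVR2 against 182, 152 and 188 in No-0 WT. Of the 6 kept genes of this list 4 were higher and 1 lower, with a median of 0.99, and the flowering and clock gene GI did not pass (-0.22). The counts were 2 and 0 with the plain analysis of variance.

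LHE1, CIPK20 and GCN5L, which the study followed furthest in mutants, were lower than in No-0 WT. LHE1 (AT2G36145), named for its part in hypocotyl elongation, had 196, 213 and 176 in CAB3::pBVR2 against 2878, 2151 and 1638 in No-0 WT, 11.1-fold lower (adjusted p = 1.43e-05). CIPK20, a kinase that acts with calcineurin B-like calcium sensors, had 103, 61.5 and 97.9 in CAB3::pBVR2 against 1197, 1383 and 1306 in No-0 WT, 15.2-fold lower. GCN5L (AT1G26220), an acetyltransferase of the GNAT family, had 143, 113 and 127 in CAB3::pBVR2 against 646, 502 and 421 in No-0 WT, 4.05-fold lower. No array of the lines overlapped for any of the 3. The study made them candidates by their difference from 35S::pBVR3 on these arrays, together with annotation and public expression data. It took them further because their mutants had longer hypocotyls in FRc light.

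**Figure D5:**
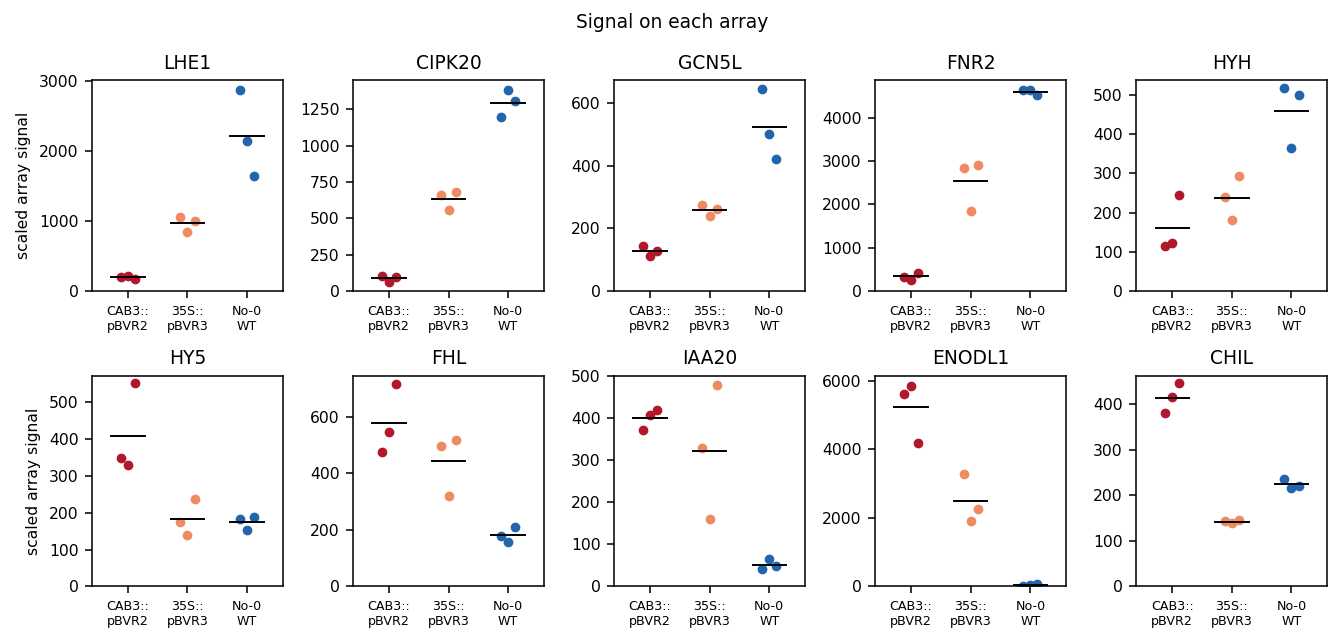
Array signal of 10 genes on each of 3 arrays of CAB3::pBVR2 (red), 35S::pBVR3 (orange) and No-0 WT (blue), with the line mean as a bar and axes that start at 0. LHE1, CIPK20, GCN5L and FNR2 are lowest in CAB3::pBVR2, HY5 and CHIL are highest in it, and FHL, IAA20 and ENODL1 are higher in both pBVR lines than in No-0 WT.

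Auxin-related transcripts of the list rose or did not pass. Of 21 named on the array 13 were kept, of which 6 were higher and none lower, with a median of 0.75. By the study's own values ARF12 and a GH3 family gene, not counted here, were lower than in No-0 WT. A further auxin-responsive gene of its mutant screen was higher. IAA20, a member of the Aux/IAA repressor family, had 373, 408 and 420.1 in CAB3::pBVR2 against 41.0, 65.2 and 49.5 in No-0 WT, 7.85-fold higher (adjusted p = 0.000255). WES1, which conjugates auxin to amino acids, had 2522, 3530 and 1626 in CAB3::pBVR2 against 806, 1163 and 1069 in No-0 WT, and its call was lost with the plain analysis of variance (adjusted p = 0.0711, range 0.00266 to 0.0711). The auxin synthesis gene YUC2 did not pass (-0.51), but was lower without CAB3::pBVR2 replicate 1 (-0.81, adjusted p = 0.0245, range 0.0245 to 0.45). With the plain analysis of variance 2 genes were higher, and without CAB3::pBVR2 replicate 1 the counts were 4 higher and 1 lower.

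Enzymes that loosen or remodel the cell wall were higher more often than lower. Of 5 kept family 9 glycosyl hydrolases, endoglucanases that act on wall glucans, 4 were higher with a median of 2.36. GH9B13 had 771, 367 and 613 in CAB3::pBVR2 against 59.5, 57.8 and 76.5 in No-0 WT, and GH9C2 had 1541, 1027 and 781 against 259.9, 187 and 190.1. Both were 8.7- and 5.12-fold higher with no overlap, and GH9B7 did not pass (-0.22). Of the 15 family members named on the array 10 did not pass the filter on signal, and with a stricter filter 2 were higher. Among 20 kept expansins and xyloglucan enzymes 6 were higher and 3 lower, with a median of 0.71. EXPB1 had 178, 101 and 129.6 in CAB3::pBVR2 against 29.8, 55.5 and 21.9 in No-0 WT, where 2 arrays were above background, and EXPA16 went the other way, at 38.2, 47.3 and 24.4 in CAB3::pBVR2, where 1 array was above background, against 125, 124 and 135 in No-0 WT. XTH19 had 2198, 1328 and 4755 in CAB3::pBVR2 against 829, 315 and 192 in No-0 WT, and EXPA8 had 3361, 2109 and 1540 against 729.8, 495 and 428. Both had wide spreads, and both calls were lost with the plain analysis of variance, at adjusted p = 0.11 for XTH19 (range 0.00438 to 0.11) and 0.0563 for EXPA8 (range 0.000297 to 0.0563). With that test the list had 1 higher and 1 lower.

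Transcripts of seeds and of dehydrated or cold-treated tissue were higher more often than lower. Of 15 kept, 6 were higher and 3 lower, with a median of 1.19. M10, of the late embryogenesis abundant type, had 329, 552 and 409 in CAB3::pBVR2 against 56.7, 13.3 and 32.1 in No-0 WT, where 2 arrays were above background. OLEO3, an oil body oleosin, had 458, 324 and 331 in CAB3::pBVR2 against 30.4, 67.8 and 60.2 in No-0 WT, 7.34-fold higher. HIS1-3, a drought-inducible linker histone, had 2887, 3597 and 3604 in CAB3::pBVR2 against 588, 1281 and 1621 in No-0 WT. The embryo proteins M10 and OLEO3 thus lay well above No-0 WT on every array, and HIS1-3 by less, with a call lost under the plain analysis of variance (adjusted p = 0.0678, range 0.00191 to 0.0678). COR15B, a cold-induced chloroplast protein, was lower, with 109, 57.2 and 62.7 in CAB3::pBVR2 against 129, 203 and 138 in No-0 WT. Its call was lost without CAB3::pBVR2 replicate 2 (adjusted p = 0.0524) and without No-0 WT replicate 2 (adjusted p = 0.0557), over a range of 0.00398 to 0.0557. The median of the list was 0.36 without No-0 WT replicate 1, its lower count was 1 without No-0 WT replicate 2, and with the plain analysis of variance the counts were 2 higher and 1 lower. Hormone signalling genes named through the study's own list were the abscisic acid pathway phosphatase PP2CA, at 2357, 5882 and 1930 in CAB3::pBVR2 against 394, 619.5 and 535 in No-0 WT, and the jasmonate repressor JAZ1, at 1165, 1776 and 2292 against 384, 268 and 271. The jasmonate factor MYC2, from the same source, had 1121, 980.5 and 1186 in CAB3::pBVR2 against 287, 281 and 303 in No-0 WT.

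ER body and jacalin-related genes, whose proteins form beta-glucosidase bodies of the endoplasmic reticulum and their complexes after damage, had 4 of 7 kept members higher and none lower (median 1.22). JAL22 had 12948, 10735 and 8818 in CAB3::pBVR2 against 1774, 1266 and 1636 in No-0 WT, and NAI2, which is needed to form the bodies, had 3296, 3176 and 3480 against 999, 771 and 1154. PYK10, the beta-glucosidase of root ER bodies, was at 18975, 14297 and 13665 in CAB3::pBVR2 and 15053, 13868 and 13440 in No-0 WT and did not pass, though with quantile normalization it was higher (0.71, adjusted p = 0.0023, range 0.0023 to 0.964).

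Stomatal genes were lower. STOMAGEN, a peptide made by mesophyll that promotes stomata in the epidermis, had 246, 401 and 224 in CAB3::pBVR2 against 1529, 1339 and 995 in No-0 WT, 4.51-fold lower (adjusted p = 0.000183). FMA, the factor that ends the guard cell lineage, had 56.7, 141 and 59.3 in CAB3::pBVR2 against 200.3, 362 and 273 in No-0 WT, and the guard cell transporter CHX20 was not above background in CAB3::pBVR2, at least 2.13-fold lower. The calls of FMA and CHX20 were lost with the plain analysis of variance, at adjusted p = 0.0532 (range 0.000537 to 0.0532) and 0.0625 (range 0.000369 to 0.0625). These were all 3 kept genes of the list, with a median of -2.17. From the study's own list, the stomatal receptor TMM was lower (-1.33) and the guard cell potassium channel GORK was higher, at 124, 148 and 133 in CAB3::pBVR2 against 34.5, 55.5 and 37.9 in No-0 WT.

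Sugar transport, autophagy and membrane proteins showed smaller changes. SWEET2, a vacuolar sugar carrier, had 857, 1215 and 797 in CAB3::pBVR2 against 2622, 2774 and 2842 in No-0 WT, 2.92-fold lower, while the vacuolar carriers SWEET16 and SWEET17 were higher. SWEET16 had 1417, 1145 and 1079 in CAB3::pBVR2 against 597, 539 and 469.8 in No-0 WT, and SWEET17 had 3130, 3516 and 2235 against 1695, 1706 and 1669. The other 4 of the 7 kept SWEET genes did not pass, though without CAB3::pBVR2 replicate 1, or when replicates were blocked, 2 SWEET genes were lower. ATG8 proteins, which coat autophagosomes, had 3 of 9 members higher and none lower (median 0.38; 5 higher with quantile normalization), with ATG8G at 621, 469 and 420 in CAB3::pBVR2 against 262, 259.6 and 256 in No-0 WT. Tetraspanins had 4 of 9 higher and none lower (median 0.68), among them TET2 at 1285, 1157 and 1065 in CAB3::pBVR2 against 546, 474 and 238 in No-0 WT, and 2 were left with the plain analysis of variance. The UBP deubiquitinating enzymes gave no call in either direction among 12 kept genes (median 0.04, log2 fold changes -0.26 to 0.64), with 2 at an unadjusted p under 0.05, no call by the plain analysis of variance and 1 higher without CAB3::pBVR2 replicate 3.

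The changes in CAB3::pBVR2 were set beside those in 35S::pBVR3, which share the same No-0 WT arrays, and the direct contrast of the pBVR lines gave the test of each difference. In that contrast 268 (1.74%) of the tested probe sets were higher and 1033 (6.69%) lower in CAB3::pBVR2. Of the 15 largest falls against No-0 WT, 14 passed this contrast as lower too, and of the 15 largest rises 6 passed it as higher, a description since they were chosen on the same CAB3::pBVR2 arrays. AT2G29290 had a log2 fold change of -4.48 in CAB3::pBVR2 relative to 35S::pBVR3 (adjusted p = 1e-05) and -0.79 in 35S::pBVR3 relative to No-0 WT. ENODL1, in contrast, had 3292, 1923 and 2254 in 35S::pBVR3, 6.18 relative to No-0 WT, and the pBVR lines did not differ past the threshold (1.09, adjusted p = 0.189). IAA20 had 329, 161 and 479.6 in 35S::pBVR3, with a contrast of 0.44 between the pBVR lines (adjusted p = 0.508). In the functional lists, 10 of 14 antenna and photosystem genes, 6 of 8 NDH genes, 4 of 4 Calvin cycle and photorespiration genes and 15 of 68 plastid-encoded genes passed the direct contrast as lower. For CaS, 35S::pBVR3 had 1301, 1404 and 1227, between both other lines, with -2.11 for CAB3::pBVR2 minus 35S::pBVR3 (adjusted p = 0.000288) and -1.24 for 35S::pBVR3 minus No-0 WT. psbA had 5433, 4957 and 1905 in 35S::pBVR3, -2.50 for the pBVR lines (adjusted p = 0.00376) and -0.43 against No-0 WT (adjusted p = 0.503). HY5 was at 174, 139.7 and 238 in 35S::pBVR3, lower than in CAB3::pBVR2 by the direct test (adjusted p = 0.0242), and at 0.05 against No-0 WT. As HY5 comes from the study's own list, chosen on these arrays for that same difference, its direct test is a description too. For the light signalling genes FHL and HAT2 the direct contrast did not pass, at 0.39 and 0.21 (adjusted p = 0.371 and 0.7).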

How the data were processed

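Total RNA of 7-day-old seedlings was hybridised to 1 single-colour ATH1 array per extraction. The authors deposited linear probe set intensities, credited to MAS5 in the submitters' processing notes, with 1 value per probe set and array and no detection calls; the genome build was not given in the sources used here. Array medians were 139.4 to 184.3. Here 64 control probe sets were left out of the tests, 3 values of 0 were set to 0.1, and intensities were put on the log2 scale and shifted by each array's percentile 75, as in the study's methods. A probe set was kept where at least 1 of the 9 arrays was at or above its own percentile 40 (15436 of 22746). The highest of 27 bacterial control probe sets was the background of an array (25.4 to 49.6). A line with no array above it was called not above background, its fold is at least the mean of the brighter line over that background, and cross-hybridisation between close relatives was not examined.

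Lines were compared with limma 3.58.1 in R 4.3.3, all 9 arrays in 1 fit, with Benjamini-Hochberg adjustment over the kept probe sets at 0.05, and the scripts were tested on simulated data. limma replaced the plain analysis of variance of the methods, which is an alternative, along with scaling, filter, low values, 6 arrays only, a replicate block and each array left out. The plain analysis of variance tests all 3 lines at once, so a call lost or kept with it is not a test of CAB3::pBVR2 against No-0 WT alone. Same-numbered CAB3::pBVR2 and No-0 WT arrays deviated together (r of deviations from the line means 0.207 to 0.265 in 3 pairs), so the numbers pair the samples by this check, not by the labels. Different numbers gave -0.168 to -0.051, which is no separate evidence. Deviations from a line mean cancel within the line, so positive same-numbered values force lower ones elsewhere. The main fit left this pairing out. Genes were named from the array annotation where it gives 1 gene (8415 kept probe sets). Named were the 15 largest rises and falls that passed with no overlap, up to 5 passed members and standard examples of each list, and the genes the study followed furthest. Members, lists and the genes from the study's own list were chosen with earlier results of these data known. A search for promoter motifs was planned and not run.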

Additional observations from a re-analysis of the deposited data

Results flagged for a closer look

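CHIL, a chalcone isomerase-like protein of flavonoid synthesis, stood out because both pBVR lines passed against No-0 WT in opposite directions and the difference between them passed a test of its own. Its signal was 381, 416 and 448 in CAB3::pBVR2, 144, 139 and 145 in 35S::pBVR3 and 235, 217 and 220.3 in No-0 WT. The log2 fold change was 0.89 in CAB3::pBVR2 (limma adjusted p = 0.000899) and -0.65 in 35S::pBVR3 (adjusted p = 0.0214) against the same No-0 WT arrays, and CAB3::pBVR2 minus 35S::pBVR3 was 1.54 (adjusted p = 0.000409). All 9 arrays fell into ranges that did not overlap between lines. The anthocyanin gene DFR, for dihydroflavonol reductase, was not above background in CAB3::pBVR2 and at least 2.84-fold lower than in No-0 WT, with 31.5, 22.1 and 29.7 in CAB3::pBVR2, 41.1, 35.7 and 28.0 in 35S::pBVR3 and 68.1, 97.0 and 136 in No-0 WT.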

How the results depend on the processing

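Over the alternatives, 94 of the 105 named genes that passed against No-0 WT passed under every one, 10 lost the call with the plain analysis of variance, 1 (COR15B) when an array was left out, and none changed sign. The counts of higher and lower probe sets were 2069 and 3455 with a shift to the median, 2772 and 3007 with quantile normalization, and 1957 and 2672 without a filter. They were 1403 and 2226 with the plain analysis of variance, which has no shared spread between genes and tests for any difference among the 3 lines. Its calls took their direction from CAB3::pBVR2 minus No-0 WT and need not rest on that pair. The 2-fold higher count of 1325 was 805 with that test and 862 with the stricter filter, which tested fewer probe sets. With 1 array left out, 1890 to 2219 were higher and 2511 to 2885 lower. With the replicate number as a block 3270 were higher and 3523 lower, and no named call was lost. Of the other list medians those not given here moved by less than the spread between arrays. With quantile normalization the medians were -0.88 for antenna and photosystem genes, -1.90 for Calvin cycle and photorespiration, -1.20 for tetrapyrroles, 1.65 for ER bodies, 0.76 for SWEET, 0.65 for ATG8 and -0.02 for UBP genes. With a shift to the median they were -1.47 for tetrapyrroles, -1.41 for plastid chaperones and -0.05 for UBP genes. The stricter filter gave -1.47, -0.58 and -0.04 for tetrapyrroles, mitochondrion-encoded and UBP genes, and log2(value + 16) gave -1.95 for NDH and -1.62 for stomatal genes. Leaving out 1 array gave -1.54 to -1.26 for assembly factors, -2.50 to -2.0 for NDH, -2.45 to -2.17 for Calvin cycle and photorespiration, -1.45 to -1.34 for tetrapyrroles, -1.41 to -1.23 for plastid chaperones, 0.36 to 1.49 for seed and dehydration, 1.19 to 1.46 for ER bodies and -0.03 to 0.08 for UBP genes. PEX4, which did not pass, was at 0.07 with quantile normalization, and PYK10 at -0.01 to 0.22 with 1 array left out, lowest without CAB3::pBVR2 replicate 1. In an alternative added after the data were seen, 71 of the named genes passed the direct contrast of the pBVR lines, and 55 to 77 did over its settings. The text names 115 genes, chosen with earlier results known and some for this same difference, so the count is a description. Over all tested probe sets 1.74% were higher and 6.69% lower in that contrast. The number of arrays, 3 a line, limits the precision, and the cause of the differences between settings was not tested.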

Other observations

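Single genes of further families changed clearly while their families did not move one way. SIM, an inhibitor of mitotic kinases that acts in endoreduplication, had 2810, 2685 and 2176 in CAB3::pBVR2 against 982, 625 and 559.6 in No-0 WT, 3.63-fold higher, and the histone gene HTB1 had 311, 248 and 269.5 against 707, 647 and 625, 2.4-fold lower. Of 14 kept histone and cell division genes 2 were higher and 2 lower (4 lower when replicates were blocked). That is 14.3% each way, below the 16.7% and 20.2% of all tested probe sets that were higher and lower. The thionins, small antimicrobial proteins, split: THI2.1 had 159, 341 and 209 in CAB3::pBVR2 against 33.5, 33.8 and 49.5 in No-0 WT, and THI2.2 had 2275, 2471 and 1814 against 6299, 10252 and 5853. The lines did not overlap in any of these 4 genes, and none lost its call under any alternative. UDP-glycosyltransferases, which attach sugars to hormones and secondary metabolites, had 8 of 31 kept members higher and 3 lower (median 0.31), with 14 higher and 6 lower when the replicate number was a block.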
